A study of Mus musculus with 36 samples.

Results

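The heat shock proteins and their J-domain partners are the general protein-folding machinery of the cell, and 72 of their genes were followed in 3 liver cell types from mice. Members were taken by gene symbol from the deposited count files: the HSP90 family (Hsp90), the HSP70 and small heat shock families (Hspa and Hspb), the mitochondrial chaperonin genes Hspd1 and Hspe1, the HSP110 gene Hsph1, and the DNAJA, DNAJB and DNAJC families. They make up 72 of the 24421 gene symbols counted. Because the choice rested on symbols alone, the family also holds relatives that are not induced by heat and some that are specific to tissues outside the liver.

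By bulk RNA sequencing the study measured hepatocytes, the endothelial cells that line the liver sinusoids (LSECs) and the stellate cells beside them (HSCs). Each cell type had 4 libraries labelled WT, which the series design describes as coming from PBS mice, 4 libraries taken 12 h and 4 taken 36 h after an injection of diphtheria toxin, 36 libraries in all. All came from liver of mice of strain C57BL/6. The labels give no genotype, age or sorting gate. As background, the published study used mice in which the Clec4f promoter drives the diphtheria toxin receptor, so that the toxin kills Kupffer cells, which are macrophages of the sinusoids. The sample titles place the 12 h and 36 h libraries after Kupffer cell depletion. Toxin, loss of Kupffer cells and their clearance thus arrive together. A group given toxin without the receptor was not analysed here, so toxin, loss and clearance cannot be told apart. Whether a library stands for 1 mouse is not in the labels, so p-values measure the spread between libraries, which may be technical.

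Chaperones bind unfolded protein and use cycles of ATP to let it fold. HSP70 proteins do this with J-domain proteins of the DNAJ families, which deliver clients, and with HSP110 proteins, which exchange the nucleotide. HSP90 finishes the folding of kinases and receptors, HSPD1 and HSPE1 form the folding chamber of the mitochondrial matrix, and HSPA5 with HSP90B1 serves the endoplasmic reticulum. When unfolded protein accumulates in the cytosol, the transcription factor HSF1 binds heat shock elements in many of these promoters. Unfolded protein in the endoplasmic reticulum acts through other factors and another promoter element. In liver, hepatocytes carry a large load of mitochondrial and secretory protein.

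Libraries held 25404719 to 31734631 counts in genes, of which members took 0.514 to 1.34%, and 56 to 67 members had at least 1 count in a library. Within groups, 0 of 54 library pairs held identical counts. Stellate markers (10 genes, among them Lrat and Reln) summed to 41324 to 85673 CPM over the HSC libraries, endothelial markers such as Stab2 to 21814 to 33266 CPM over the LSEC libraries, and hepatocyte markers such as Alb to 48437 to 80683 CPM over the hepatocyte libraries, with no marker of a cell type at 0 in its own libraries of any group. The filter on low counts left 63 members in the HSC test, 62 in that of LSECs and 57 in that of hepatocytes, and 57 passed in all 3. Passing in none were 8 members, and 4 of these (Dnajb8, Dnajc5b, Dnajc5g and Hspb3) had no count in any library; the other four (Dnajb3, Dnajb7, Dnajc6 and Hspb7) stayed under the minimum. Levels are given as CPM, the counts of a gene per 1000000 counts of its scaled library, and every adjusted p comes from edgeR's quasi-likelihood test, adjusted by Benjamini-Hochberg over all genes tested, with 0.05 as the threshold of a call. In bulk libraries, fewer cells of a type and less RNA per cell cannot be told apart.

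The promoters that carry a textbook element of either stress response are shown first, so that the genes' values can be read beside them. In RefSeq windows of 300 bases (250 before to 50 after the annotated start, build GRCm38.p6), 58 of the 72 members had an entry. The other 14 (Hsp90aa1, Hsp90ab1, Hspa8, Hspa9, Hspa13, Hspb2, Dnajc2, Dnajc5, Dnajc5b, Dnajc11, Dnajc12, Dnajc18, Dnajc22 and Dnajc30) were not searched. A heat shock element was searched on both strands as 3 units with 2 free bases between neighbours, either GAA, TTC, GAA or TTC, GAA, TTC. It was found in 4 of the 58 (6.9%), against 179 of 27025 genes (0.662%). The windows below read 5′ to 3′ along the gene's strand with the element in capitals. Those of Hspe1 and Hspd1 are the same bases of the promoter that both genes share, chr1:55088053-55088082, read on the plus strand for Hspe1 and on the minus strand for Hspd1, and hold 2 overlapping matches. The Hsph1 match is at chr5:149636280-149636308 on the minus strand, after its annotated start. The Dnajb6 match is at chr5:29735844-29735872 on the plus strand.
Hspe1: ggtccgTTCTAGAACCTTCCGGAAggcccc
Hspd1: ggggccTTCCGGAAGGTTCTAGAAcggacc
Hsph1: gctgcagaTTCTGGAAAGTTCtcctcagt
Dnajb6: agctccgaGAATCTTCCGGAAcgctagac

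The endoplasmic reticulum stress response element, CCAAT and CCACG with 9 free bases between them on either strand, was found in 3 of the 58 (5.17%), against 37 of 27025 genes (0.137%), and does not overlap the heat shock element. These 3 are the luminal HSP70 Hspa5 at chr2:34772020-34772048 on the plus strand, the luminal HSP90 Hsp90b1 on the minus strand, and Dnajc3, a luminal J-domain protein, at chr14:118937822-118937850 on the plus strand. Hsp90b1 holds 2 matches in opposite directions, at chr10:86705633-86705661 and at chr10:86705528-86705556. A match is a run of letters and not a measured binding site, and no match says only that these letters are not in the window.
Hspa5: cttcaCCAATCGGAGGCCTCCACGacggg
Hsp90b1, first match: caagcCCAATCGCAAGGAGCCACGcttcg
Hsp90b1, second match: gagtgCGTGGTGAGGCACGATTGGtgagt
Dnajc3: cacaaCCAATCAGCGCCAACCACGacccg

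At 12 h after the toxin, a part of the members rose in HSCs and in LSECs, among them both cytosolic HSP90 genes, 3 of 6 cytosolic HSP70 genes and 2 of 3 HSP110 genes in each, while no member passed the test in hepatocytes. In HSCs 22 of 63 tested members rose (34.9%) and 2 fell (3.17%), where 17% of all genes tested rose and 15.1% fell. In LSECs 15 of 62 rose (24.2%) and 4 fell (6.45%), against 9.74% and 8.5% of all genes. The median log2 change of the tested members was 0.26 in HSCs and 0.22 in LSECs, beside 0.01 and -0.02 over all genes tested. Leaving out 1 library lowered the number of members called in HSCs from 24 to 14 (without WT replicate 3) and in LSECs from 19 to 12 (without WT replicate 4). All members together summed to 6976 ± 1455 CPM (SD, n = 4) in WT HSCs and 9861 ± 1254 at 12 h, and to 7544 ± 1510 and 11868 ± 1969 CPM in LSECs.

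Both cytosolic HSP90 genes rose in both cell types. Hsp90aa1, the heat-inducible isoform, stood at 80, 139, 64 and 81.6 CPM in HSC WT replicates 1 to 4 and at 174, 306, 285 and 187 CPM at 12 h. All 4 libraries at 12 h lay above all 4 WT libraries, and the log2 change was 1.38 ± 0.25 (SE, adjusted p = 0.00125). In LSECs it went from 58.5, 81.9, 53.5 and 53.3 CPM to 136, 170, 162 and 141 CPM, again without overlap, a log2 change of 1.30 ± 0.14 (adjusted p = 0.00019). Hsp90ab1, the constitutive isoform, is the more abundant of the pair, and its log2 change was 0.97 in HSCs (adjusted p = 0.0181) and 0.91 in LSECs (adjusted p = 0.0283). Its call in LSECs was lost when any of WT replicates 1, 3 and 4 or 12 h replicates 2, 3 and 4 was left out, with adjusted p between 0.0517 and 0.0818. The groups of Hsp90ab1 overlapped, since 12 h replicate 1 lay below WT replicate 2 in HSCs (757 and 873 CPM) and in LSECs (954 and 1046 CPM).

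Among the 6 cytosolic HSP70 genes, Hspa8, Hspa1a and Hspa1b rose in both cell types. Hspa8, the constitutive HSP70, stood at 911, 2039, 893 and 662 CPM in HSC WT libraries and at 1432, 3069, 2714 and 2245 CPM at 12 h. WT replicate 2 lay above 12 h replicate 1, so the groups overlapped; the means were 1126 ± 619 and 2365 ± 707 CPM and the log2 change 1.07 ± 0.33 (adjusted p = 0.0255). That call was lost without any of WT replicates 1, 3 and 4 or 12 h replicates 2 and 3 (adjusted p 0.0576 to 0.0734). In LSECs Hspa8 went from 1655, 2584, 1196 and 1503 CPM to 2378, 3905, 3601 and 3838 CPM. Replicate 2 was again the highest of the WT libraries and lay above replicate 1, the lowest at 12 h, and the log2 change was 0.98 ± 0.24 (adjusted p = 0.0132). About 73.2% of the 50-base stretches of the longest Hspa8 transcript recur in other annotated genes, so the way the authors counted such reads bears on its level.

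Hspa1a and Hspa1b encode the nearly identical stress-inducible HSP70, the best known target of HSF1, and varied widely between libraries of 1 group. Hspa1a stood at 92.4, 36.1, 20.9 and 45.1 CPM in HSC WT libraries and at 185, 109, 42.4 and 140 CPM at 12 h. LSEC libraries held 144, 42.2, 36.8 and 33.3 CPM in WT and 277, 138, 81.9 and 652 CPM at 12 h. WT replicate 1 was the highest WT library in both cell types, and it exceeded the lowest library at 12 h in both. The log2 change was 1.29 ± 0.47 in HSCs (adjusted p = 0.0498) and 2.16 ± 0.63 in LSECs (adjusted p = 0.0288). The HSC call sat at the threshold and was lost in 10 of 12 fits that left out 1 library, any but WT replicate 1 and 12 h replicate 3 (adjusted p up to 0.132); the LSEC call was lost without WT replicate 2, 3 or 4 or 12 h replicate 4 (0.0741 to 0.109). For Hspa1b the log2 change was 1.33 in HSCs (adjusted p = 0.0326) and 2.17 in LSECs (adjusted p = 0.017). Its calls were lost without HSC WT replicate 2, 3 or 4 or HSC 12 h replicate 1 or 2 (0.0586 to 0.0899), and without LSEC WT replicate 3 or 4 or LSEC 12 h replicate 4 (0.0526 to 0.0562). The 2 genes share 58.8% of the 50-base stretches of Hspa1a, so reads may be split between them in a way that the counting decides. Hspa2, an HSP70 best known from testis, stayed under 20 CPM and was not called.

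**Figure D1:**
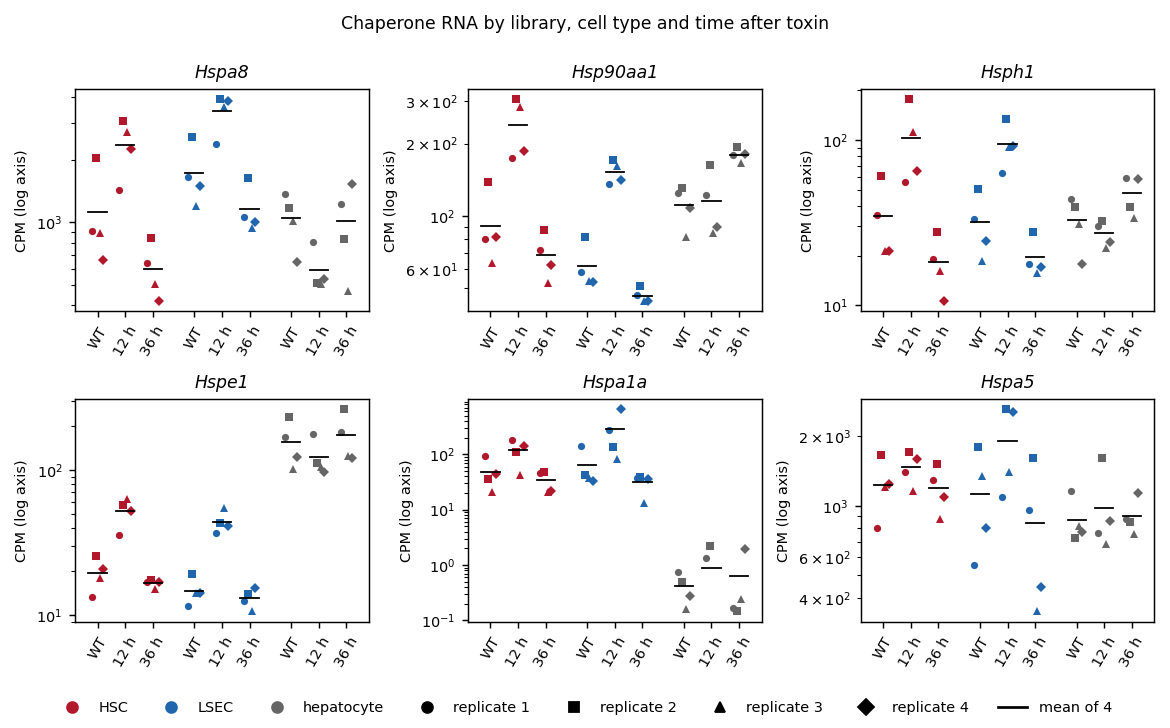
CPM on a log axis for 6 members in each of the 9 groups, with 1 point per library, the marker shape giving the replicate number and the bar the mean of 4. Hspa8, Hsp90aa1, Hsph1 and Hspe1 are highest at 12 h in HSCs and LSECs; Hspa5 overlaps between conditions in both; hepatocyte replicates 3 and 4 at 12 h have no Hspa1a count and cannot be drawn.

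Of the 3 HSP110 exchange factors, Hsph1 and Hspa4 rose in both cell types. Hsph1 stood at 35.1, 60.5, 21.2 and 21.2 CPM in HSC WT libraries and 55.5, 176, 112 and 64.5 CPM at 12 h, a log2 change of 1.57 ± 0.41 (adjusted p = 0.0109). In LSECs the values were 33.5, 50.3, 18.6 and 24.6 CPM and 63.3, 134, 90.5 and 92.6 CPM, a log2 change of 1.58 ± 0.30 (adjusted p = 0.00301). In LSECs the groups did not overlap, whereas HSC 12 h replicate 1 lay under WT replicate 2. Hspa4, which serves HSP70 in unstressed cells as well, rose by less, with log2 changes of 0.47 in HSCs (adjusted p = 0.0142) and 0.42 in LSECs (adjusted p = 0.00921). Hspa4l, another HSP110, had log2 changes of 0.45 and 0.52 and was not called in either cell type (adjusted p = 0.357 and 0.228). Of the 4 members with a heat shock element in the window, Hspe1, Hspd1 and Hsph1 rose in both cell types, whereas Dnajb6 was at 90.1 CPM in WT and 89.8 at 12 h in HSCs and at 121 and 132 CPM in LSECs, not called. Members without a match, such as Hspa1a, Hspa1b, Hspa4 and Dnaja1, rose in both as well. So did Hspa8, both cytosolic HSP90 genes, Hspa9 and Dnajc2, whose promoters were not searched.

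Of the 8 mitochondrial members, Hspe1, Hspd1 and Hspa9 rose in both cell types. Hspe1, the lid of the chaperonin, stood at 13.3, 25.4, 18 and 20.6 CPM in HSC WT libraries and at 35.7, 57.3, 63.4 and 52.2 CPM at 12 h. LSEC libraries went from 11.5, 19, 14.2 and 14.2 CPM to 36.6, 42.9, 54.5 and 41.3 CPM. Every 12 h library was above every WT library in both cell types, with log2 changes of 1.43 ± 0.19 (adjusted p = 0.000203) and 1.57 ± 0.17 (adjusted p = 0.00019). Hspd1, the chamber itself, shares the promoter printed above and rose from 97.8 ± 16.9 to 167 ± 43.2 CPM in HSCs (SD, n = 4; log2 0.77, adjusted p = 0.00534) and from 73.2 ± 9.44 to 149 ± 16.3 CPM in LSECs (log2 1.02, adjusted p = 0.000397). Hspa9, the HSP70 of the matrix, went from 141 ± 14.4 to 253 ± 73.6 CPM in HSCs (log2 0.84, adjusted p = 0.00323) and from 138 ± 14.6 to 255 ± 42.2 CPM in LSECs (log2 0.89, adjusted p = 0.000641). In HSCs the 12 h replicate 4 of Hspd1 (108 CPM) and of Hspa9 (152 CPM) lay below WT replicate 2 (123 and 156 CPM), and in LSECs neither gene's groups overlapped. Dnaja3, a J-domain protein of mitochondria, also rose in HSCs. That made 4 of 8 mitochondrial members there and 3 of 8 in LSECs, beside 17% and 9.74% of all genes. Hspd1 and Hspe1 overlap each other on chromosome 1 (55077833 to 55088243 and 55088148 to 55091317, mm10), and the counting's strand setting is not given in the sources used here.

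The endoplasmic reticulum members moved less. Hspa5 stood at 803, 1662, 1206 and 1247 CPM in HSC WT libraries and 1401, 1717, 1158 and 1596 CPM at 12 h, and its log2 change of 0.26 had an adjusted p of 0.391. In LSECs it spread from 552 to 1794 CPM in WT and from 1095 to 2615 CPM at 12 h, with a log2 change of 0.77 ± 0.47 and an adjusted p of 0.283. Both pairs of groups overlapped widely, so at this spread a change of Hspa5 was not resolved. Hsp90b1 (log2 -0.23 in HSCs and 0.31 in LSECs) and Dnajc3 (-0.24 in HSCs), which share its promoter element, were not called, and the same holds for Dnajb9, a luminal J-domain protein induced by unfolded protein (log2 0.17 in HSCs and 0.40 in LSECs, adjusted p = 0.577 and 0.37). Of 10 members placed in this compartment, 2 rose in HSCs, a share near the 17% of all genes that rose there. The 2 members were Dnajb11, a luminal partner of HSPA5, from 90.3 to 121 CPM (log2 0.42, adjusted p = 0.0394), and Dnajc1 (log2 0.42, adjusted p = 0.0392). In LSECs none rose, and Dnajc10, a reductase of the lumen, fell. It stood at 241, 258, 315 and 303 CPM in LSEC WT libraries and 189, 153, 180 and 212 CPM at 12 h, without overlap, a log2 change of -0.61 ± 0.13 (adjusted p = 0.00669).

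The J-domain partners rose in part. Dnaja1, a cytosolic partner of HSPA8, rose with a log2 change of 1.05 in HSCs (adjusted p = 0.00359) and 0.82 in LSECs (adjusted p = 0.0116). In LSECs its 12 h replicate 1 (244 CPM) lay below WT replicate 2 (252 CPM). Dnajb1, the classical heat-inducible J-domain protein, stood at 88.6, 107, 63.3 and 65.2 CPM in HSC WT libraries and 149, 93.9, 122 and 257 CPM at 12 h (log2 0.94 ± 0.26, adjusted p = 0.0146). In LSECs it was 120, 163, 92.7 and 93.8 CPM and 137, 114, 138 and 239 CPM (log2 0.42, adjusted p = 0.228). At 12 h replicate 4 was the highest and replicate 2 the lowest library in both cell types. Dnajc25 rose in HSCs without overlap, from 8.13, 9.71, 8.46 and 6.75 CPM to 17.9, 15.7, 19.5 and 14.6 CPM (log2 1.03, adjusted p = 0.000814), and its log2 change in LSECs was 0.65 (adjusted p = 0.0126). Dnajc2, a J-domain protein of the ribosome, rose in both (log2 1.0 and 0.55), as did Dnajc7, which bridges HSP70 and HSP90 (log2 0.28 and 0.40). In HSCs the 12 h replicate 4 of Dnajc2 (4.10 CPM) lay inside the WT range of 2.81 to 5.94 CPM. Dnajb5, Dnajb2 and Dnajc16 were called in HSCs, and Dnajb4 in LSECs, where it went from 26.6 ± 2.44 to 41.4 ± 14.6 CPM (adjusted p = 0.0424). Its 12 h replicate 2 (24.7 CPM) lay inside the WT range of 23.3 to 28.9 CPM, and replicate 4 was the highest (60.4 CPM). How this Dnajb4 call fares without 1 library is not given here.

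Small heat shock proteins hold unfolded protein without ATP. In HSCs 1 of their 5 tested genes rose, a share near the 17% of all genes. Hspb1 stood at 22.5, 36.1, 27.8 and 28.4 CPM in HSC WT libraries and 32.5, 56.1, 123 and 122 CPM at 12 h (log2 1.54 ± 0.35, adjusted p = 0.00499). The rise was uneven, since replicates 3 and 4 were far above replicate 1, which lay inside the WT range. In LSECs its log2 change of 0.84 was not called (adjusted p = 0.151). Hspb6 fell there from 2.48 to 1.39 CPM (log2 -0.84, adjusted p = 0.026), a call lost without WT replicate 1, 3 or 4 or 12 h replicate 1 (0.0517 to 0.0703).

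Against the general direction, the distant HSP70 relative Hspa12a fell in both cell types. HSC libraries held 51.6, 66.4, 44.8 and 46.2 CPM in WT and 17.3, 32.4, 19.6 and 27.3 CPM at 12 h, and LSEC libraries 97.7, 121, 92.9 and 101 CPM and 36.3, 68.3, 49 and 63.9 CPM. No library at 12 h reached the WT range, and the log2 changes were -1.11 ± 0.22 (adjusted p = 0.00185) and -0.92 ± 0.18 (adjusted p = 0.00372). Its closest relative Hspa12b, which is known from endothelial cells, was not called in either (8.33 and 7.29 CPM in HSCs, 75.2 and 65.5 CPM in LSECs). The other members that fell were Dnajc9, a histone chaperone, in HSCs (log2 -0.40, adjusted p = 0.0386) and Dnajc28 in LSECs (log2 -0.78, adjusted p = 0.0302). Both calls were lost in fits without 1 library: Dnajc9 without HSC WT replicate 1, 2 or 3, 12 h replicate 1 or 3 or 36 h replicate 3 (0.0503 to 0.106), and Dnajc28 without LSEC WT replicate 1, 2 or 4 or 12 h replicate 3 (0.0568 to 0.0857).

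In hepatocytes no member was called at 12 h by edgeR or by DESeq2, and 0% of all 11326 genes tested were. At an unadjusted p under 0.05, 4 members and 453 genes in all would have passed. Hspa8 stood at 1363, 1170, 1017 and 647 CPM in hepatocyte WT libraries and 802, 510, 507 and 535 CPM at 12 h. Its direction was opposite to that in the other cell types, but the groups overlapped and the log2 change of -0.83 had an adjusted p of 0.999. Hsph1 lay between 17.7 and 43.7 CPM in WT and between 22.3 and 32.5 CPM at 12 h, and Hspe1 between 101 and 230 CPM and between 97 and 177 CPM. The mitochondrial pair Hspd1 and Hspa9 had log2 changes of -0.07 and -0.05, Hsp90aa1 had a log2 change of 0.05 and Dnajb1 of -0.37. Hspa1a was close to absent, at 0.158 to 0.758 CPM in WT libraries and at 1.34, 2.24, 0 and 0 CPM at 12 h.

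The difference between the responses was tested directly, since a call in 1 cell type and none in another shows no difference by itself. Against hepatocytes, the 12 h response was greater in HSCs for 11 of 64 members (17.2%) and smaller for none, where 5.03% and 4.17% of all genes were called. In LSECs it was greater than in hepatocytes for 8 members and smaller for 1 (Dnajc10), with 1.97% and 1.6% of all genes called. With the replicate number as a block the counts were 5 for HSCs and 4 for LSECs, the Dnajc10 call being lost (adjusted p = 0.138), and DESeq2 called 18 for HSCs. The number of members called dropped to 7 for HSCs without HSC WT replicate 3 or 4 or HSC 12 h replicate 3, and to 5 for LSECs without LSEC WT replicate 1, LSEC 12 h replicate 4, hepatocyte WT replicate 1 or hepatocyte 12 h replicate 3 or 4. Hspe1 had a difference of log2 1.72 for HSCs (adjusted p = 0.0023) and 1.87 for LSECs (adjusted p = 0.0033). Hspa8 differed by log2 1.85 in HSCs (adjusted p = 0.0158) and 1.77 in LSECs (adjusted p = 0.0407). The block lost both Hspa8 calls (adjusted p = 0.0637 and 0.0995), and the LSEC call was also lost in 11 of 36 fits without 1 library (0.0551 to 0.0856). Both sets of differences use the same hepatocyte libraries, so they are not separate evidence. Hspe1, Dnajb1 and 7 other members also split the hepatocyte libraries by their level of the nuclear RNA Malat1, with Hspe1 at 168 to 261 CPM in the 5 libraries above 100 CPM of Malat1 (WT replicates 1 and 2, 12 h replicate 1, 36 h replicates 1 and 2) and at 97 to 125 CPM in the other 7. Of the 57 tested members 8 lay above and 1 below in those 5 libraries (14% and 1.75%), against 12.8% and 10.6% of all genes, and the part of that split in the differences was not tested. Between HSCs and LSECs no member differed by edgeR or DESeq2 (1.62% of all genes did by edgeR). By edgeR, 2 of 64 members (Dnajc10 and Dnajb5) and 1644 of 14104 genes had an unadjusted p under 0.05. With the replicate number as a block, which the HSC and LSEC libraries at 12 h may share, 3 members differed (Dnajb1, Dnajc10 and Dnajc16). The 14 members that rose in both cell types were 63.6% of those called in HSCs and 93.3% of those called in LSECs.

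**Figure D2:**
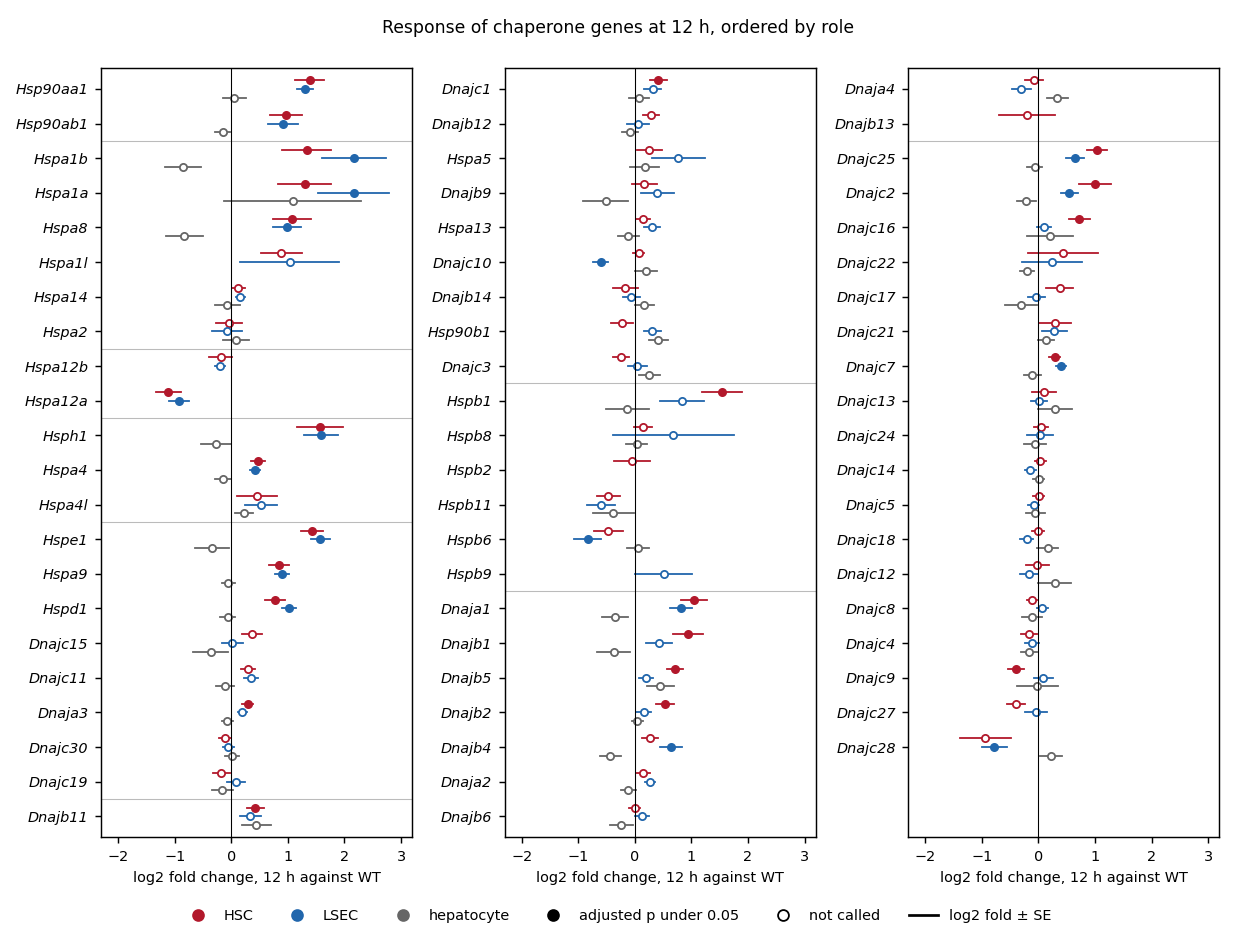
Log2 change from WT to 12 h with its standard error for each tested member, ordered by role, with 1 colour per cell type and filled symbols for an adjusted p under 0.05. Filled HSC and LSEC symbols of the cytosolic HSP90, cytosolic HSP70, HSP110 and mitochondrial members lie to the right of 0, Hspa12a lies to the left in both, Hspa2 and Dnajc30 lie open and slightly to the left in both, and no hepatocyte symbol is filled.

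Partner genes of the members were tested in the same fits, where 17% of all genes rose and 15.1% fell in HSCs and 9.74% rose and 8.5% fell in LSECs. Among co-chaperones of HSP70 and HSP90, 10 of 36 tested rose and 2 fell in HSCs, and 10 of 34 rose and 1 fell in LSECs. Their median log2 changes were 0.23 and 0.20, beside the medians of all genes near 0 given above. Stip1, which links HSP70 to HSP90, went from 73.2 to 260 CPM in HSCs (log2 1.83, adjusted p = 0.000244) and from 102 to 293 CPM in LSECs (log2 1.52, adjusted p = 0.000619). Bag3, an exchange factor of HSP70, rose from 37.6 to 60.8 CPM in HSCs, and LSEC means were 58.9 and 91.9 CPM (adjusted p = 0.0008 and 0.0029). Of 14 subunits of the cytosolic chaperonin and prefoldin, which fold actin and tubulin, 10 rose and 1 fell in HSCs, and 9 rose in LSECs, with medians of 0.54 and 0.59. Cct5, a chaperonin subunit, rose from 137 to 252 CPM in HSCs and from 135 to 243 CPM in LSECs. Genes of the endoplasmic reticulum's stress response rose for 9 of 30 in HSCs, with 1 lower, and for 3 of 29 in LSECs, with 1 lower, the latter a share near that of all genes. Atf4, the transcription factor of the integrated stress response, was among those in both (46.2 to 116 CPM and 64.2 to 101 CPM), and Hyou1 and Manf were among those in LSECs. Of 13 mitochondrial import and folding genes, 5 rose and 1 fell in HSCs and 4 rose in LSECs, with Trap1, the mitochondrial HSP90, going from 56.7 to 92.9 CPM and from 59.2 to 96.9 CPM. In hepatocytes no gene of these 4 lists was called at 12 h.

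From 12 h to 36 h, 23 of 63 members fell in HSCs (36.5%) and 4 rose (6.35%), against 15% and 12.9% of all genes. In LSECs 18 of 62 fell (29%) and 5 rose (8.06%), against 10.8% and 10.6%. This comparison shares the 12 h libraries with the one before, so the 2 are not independent. Hsph1 was at 19.1, 27.7, 16.1 and 10.6 CPM in the HSC 36 h libraries and at 17.7, 27.9, 15.6 and 17 CPM in those of LSECs. Every one of these lay below all 12 h libraries of its cell type, with log2 changes of -2.48 (adjusted p = 0.00111) and -2.28 (adjusted p = 0.000421). Hspa8 at 36 h was 639, 838, 506 and 418 CPM in HSCs (log2 -1.98, adjusted p = 0.00112) and 1059, 1627, 941 and 1000 CPM in LSECs (log2 -1.57, adjusted p = 0.000929). Hspa1a in LSECs ended at 37.2, 38.5, 13.3 and 36.1 CPM (log2 -3.20, adjusted p = 0.00422). Hspe1 came down to 16.6 ± 1.04 CPM in HSCs (SD, n = 4; log2 -1.65, adjusted p = 0.000123) and 13.1 ± 2.03 CPM in LSECs (log2 -1.74, adjusted p = 0.000112).

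A few members went the other way between 12 h and 36 h. Hspa12a rose again in both cell types (log2 0.73 in HSCs, adjusted p = 0.0215, and 0.68 in LSECs, adjusted p = 0.0162). The HSC call was lost without 12 h replicate 1 or 3 or 36 h replicate 1 or 2 (0.0547 to 0.0758), and the LSEC call without 36 h replicate 2 (0.0501). Dnajc10 rose in LSECs from 183 to 286 CPM (log2 0.64, adjusted p = 0.00418), Dnajc9 in HSCs (log2 0.51, adjusted p = 0.0136) and Hspb6 in LSECs (log2 1.21, adjusted p = 0.00346). Hspb11 and Dnajc28 rose in both to means under 6 CPM. The HSC call of Dnajc28 (log2 1.38) was lost without 12 h replicate 1, 3 or 4 or 36 h replicate 1, 2 or 3 (0.0546 to 0.101). That of Hspb11 (log2 0.64) was lost without 12 h replicate 1 or 2 or 36 h replicate 3 or 4 (0.0626 to 0.0839), and its LSEC call (log2 0.77) in 9 of 12 such fits, any but those without WT replicate 1, 12 h replicate 3 or 36 h replicate 4 (0.055 to 0.11).

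Compared with WT, no member was called at 36 h in any cell type by edgeR or DESeq2, where 0.142% of all genes were called in HSCs, 0% in LSECs and 0% in hepatocytes. At an unadjusted p under 0.05, 4 of 63 members and 868 of 12676 genes passed in HSCs. In LSECs 6 of 62 members and 1288 of 12286 genes did, and in hepatocytes 4 of 57 members and 564 of 11326 genes. Nor did any member's 36 h response differ between cell types by either tool. Of all genes, 0% differed between HSCs and LSECs, and 0.00709% between HSCs and hepatocytes and between LSECs and hepatocytes. At an unadjusted p under 0.05, 1, 4 and 4 of 64 members passed, beside 567, 937 and 973 of 14104 genes. Several of the induced genes had lower means than WT without passing the test. Hspa8 had a log2 difference of -0.91 in HSCs (adjusted p = 0.54) and -0.58 in LSECs (adjusted p = 0.422), and Hsph1 -0.91 (adjusted p = 0.72) and -0.70 (adjusted p = 0.432). In LSECs all 4 Hsp90aa1 libraries at 36 h (46.7, 51.1, 44.2 and 44.4 CPM) lay below the lowest WT library, with a log2 difference of -0.41 (adjusted p = 0.344). In hepatocytes Hsp90aa1 was 125, 130, 81.9 and 108 CPM in WT and 179, 194, 167 and 181 CPM at 36 h. All 4 lay above all WT libraries, yet the log2 difference of 0.70 had an adjusted p of 0.518. Between 12 h and 36 h in hepatocytes, 0 members and 0% of genes were called by edgeR, and DESeq2 called 1 member, Hsp90ab1. By edgeR, 7 of 57 members and 725 of 11326 genes had an unadjusted p under 0.05.

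Replicates of 1 number resembled each other in HSCs and LSECs at 12 h and at 36 h. In WT this was less clear, with 3 of 4 libraries correlating best with their own number. For each member, the replicate number of its highest library was compared between cell types within a condition, as a description without a test. In WT, 30 of 61 members (49.2%) had their highest HSC and LSEC libraries under the same number, where 37.3% of 11595 genes did. The shares were 49.2% of members and 42.4% of genes at 12 h, and 45.9% and 34.3% at 36 h. Between HSCs and hepatocytes the members' shares in WT, at 12 h and at 36 h were 17.5, 24.6 and 14%, beside 24.3, 24.2 and 21.7% of genes. Between LSECs and hepatocytes they were 22.8, 22.8 and 24.6%, beside 21.2, 23.8 and 30.6% of genes. The labels do not say whether libraries of 1 number come from 1 mouse or 1 day.

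In WT, replicate 2 held the highest level of 30 of the 61 members in HSCs and of 26 in LSECs. How often it was highest over all genes is not given here, so this need not be particular to the members. Hspa8, Hsp90ab1, Hsph1 and Hspa5 were among those highest in replicate 2 of both cell types. Hspa1a and Hspa1b differed from these, with replicate 1 the highest in both cell types. At 12 h, Hspa8 and Hsph1 were highest in replicate 2 of both, and Dnajb1 in replicate 4 of both. Immediate early genes, which are transcribed within minutes of a stimulus or of cell isolation, varied by number as well. Their 24 levels summed to 4113, 11842, 3448 and 3196 CPM in HSC WT replicates 1 to 4 and to 9492, 26048, 4172 and 3658 CPM in those of LSECs. At 12 h the sums were 19719, 5371, 5289 and 23101 CPM in HSCs and 28139, 5897, 8835 and 28306 CPM in LSECs, and at 36 h they lay between 2990 and 3375 CPM and between 4793 and 5537 CPM. Of the tested genes on that list, 9 of 23 rose in HSCs and 3 of 22 in LSECs at 12 h. Among all genes tested 17% and 9.74% rose. The sum was highest in WT replicate 2, as for Hspa8. At 12 h it was highest in replicates 1 and 4 of both cell types, where Hspa1a was highest too, as were Hspa1b in LSECs (218, 156, 72.3 and 443 CPM) and Dnajb1 in HSCs, whereas Hspa8 and Hsph1 were highest in replicate 2. The part of cell isolation in the members' levels was not tested.

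**Figure D3:**
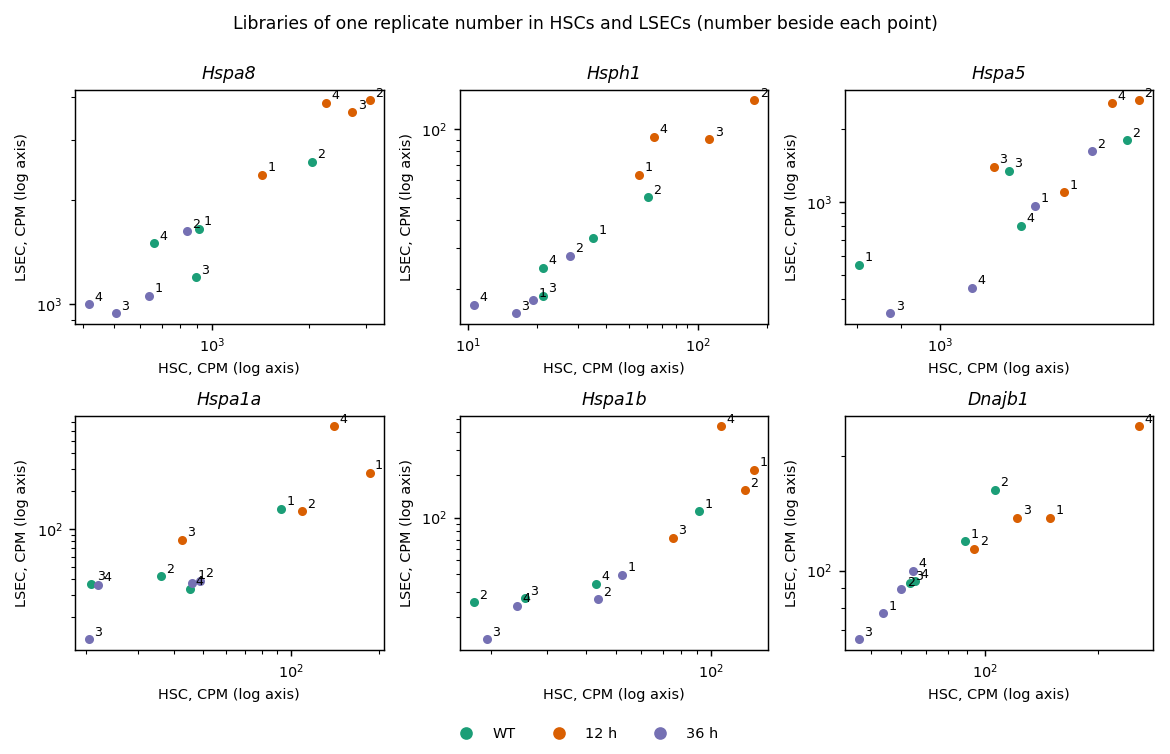
CPM of 6 members in HSC libraries (horizontal) against LSEC libraries (vertical) on log axes, with 1 point per replicate number, coloured by condition and marked with its number. For Hspa8 and Hsph1 the points numbered 2 lie highest within WT and within 12 h in both cell types, and for Hspa1a the WT point numbered 1 lies above the other WT points.

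Some sums of markers of other cells moved with the conditions, and others overlapped between them. The summed level of 10 Kupffer cell markers was 554 to 866 CPM in HSC WT libraries, 133 to 486 CPM at 12 h, with Clec4f, Timd4 and Cd163 at 0 in all 4, and 531 to 780 CPM at 36 h. In LSECs the ranges were 678 to 848, 609 to 970 and 531 to 814 CPM, with Timd4 at 0 at 12 h. Of the tested markers 5 of 6 fell in HSCs and 5 of 8 in LSECs at 12 h, beside 15.1% and 8.5% of all genes. The LSEC ranges overlapped, so the sum there did not follow the markers that fell. In hepatocytes the sum was 173 to 197 CPM in WT and 166 to 250 CPM at 12 h, where 8 of the 10 were at 0. That sum at 12 h thus came from the other markers alone. The part of Kupffer cells in the members' levels was not tested. Hepatocyte markers summed to 269 to 379 CPM in HSC WT libraries and 268 to 491 CPM at 12 h, endothelial markers to 67.8 to 148 and 38.7 to 65.7 CPM.

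Without toxin, all 8 mitochondrial members were lower in HSCs and in LSECs than in hepatocytes, on CPM scaled over the 12 WT libraries. Of all 63 tested members 29 were lower in HSCs than in hepatocytes (46%) and 19 higher (30.2%), where 35.9% and 43.2% of all genes were. In LSECs 33 were lower (52.4%) and 20 higher (31.7%), against 36.3% and 42.7%. Hspa9 was at 783, 818, 863 and 864 CPM in hepatocytes and at 124 ± 12.7 CPM in HSCs and 109 ± 12 CPM in LSECs (log2 -2.75 and -2.93, adjusted p = 3.77e-10 and 1.87e-10). Hspe1 was at 230, 323, 147 and 176 CPM in hepatocytes, 17 ± 4.47 CPM in HSCs and 11.7 ± 2.47 CPM in LSECs (log2 -3.69 and -4.23, adjusted p = 1.79e-08 and 5.09e-09). Even at 12 h, on the scale of their own cell type, the highest Hspe1 library was 63.4 CPM in HSCs and 54.5 CPM in LSECs.

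Some members marked 1 cell type or were missing from 1. Dnajc22 was at 122 ± 9.66 CPM (SD, n = 4) in hepatocytes, 0.998 ± 0.154 in LSECs and 0.212 ± 0.0743 in HSCs. Hspb8, a small heat shock protein that works with BAG3, was at 64.7 ± 10.4 CPM in HSCs and 118 ± 18.7 in hepatocytes but at 0.0565 to 0.361 CPM in LSECs (log2 8.11 for HSCs over LSECs, adjusted p = 6.77e-11). Hspb2, known from muscle, was at 7.35 CPM in HSCs and at 0 in 3 of the 4 libraries of each other cell type. Its position overlaps that of the gene Cryab, so the way the authors counted such reads bears on its level. Hspa12b was at 59.7 ± 2.1 CPM in LSECs and 7.31 ± 1.09 in HSCs (log2 -3.03 for HSCs over LSECs, adjusted p = 9.51e-10), and at 0 in 3 of 4 hepatocyte libraries. Hspa12a, the member that fell at 12 h, was at 81.9 ± 9.81 CPM in LSECs, 45.9 ± 8.62 in HSCs and 0 to 0.339 in hepatocytes.

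Hspa1a too was nearly missing from hepatocytes, at 0.586 ± 0.353 CPM (SD, n = 4), beside 42.7 ± 27.1 in HSCs and 51 ± 43 in LSECs (log2 6.14 and 6.40, adjusted p = 2.27e-06 and 1.5e-06). Hspa1b was at 13.8 ± 2.97 CPM in the same hepatocytes, so the 2 nearly identical genes, close in level in HSCs and LSECs, were far apart there. Dnajc10 was higher in HSCs (192 ± 9.74 CPM) and LSECs (221 ± 27.1) than in hepatocytes (32.3 ± 5.19), and the HSC and LSEC levels were not told apart (adjusted p = 0.204). Between HSCs and LSECs 16 members were higher and 16 lower (25.4% each), where 29.7% and 27.1% of all genes were. Dnajb4 was higher in HSCs (59.7 ± 7.36 against 21.1 ± 1.8 CPM, 2.83-fold, adjusted p = 1.19e-07), and so were 4 of the 5 tested small heat shock genes. Per kilobase of exon, Hspa8 ranked first among the members in every cell type, at 413, 575 and 617 CPM per kilobase in HSCs, LSECs and hepatocytes. Hsp90b1, Hspa5 and Hsp90ab1 took the next 3 ranks in different orders. Hspe1 ranked 5 in hepatocytes at 283 CPM per kilobase, 18 in HSCs at 21.9 and 23 in LSECs at 15.1.

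**Figure D4:**
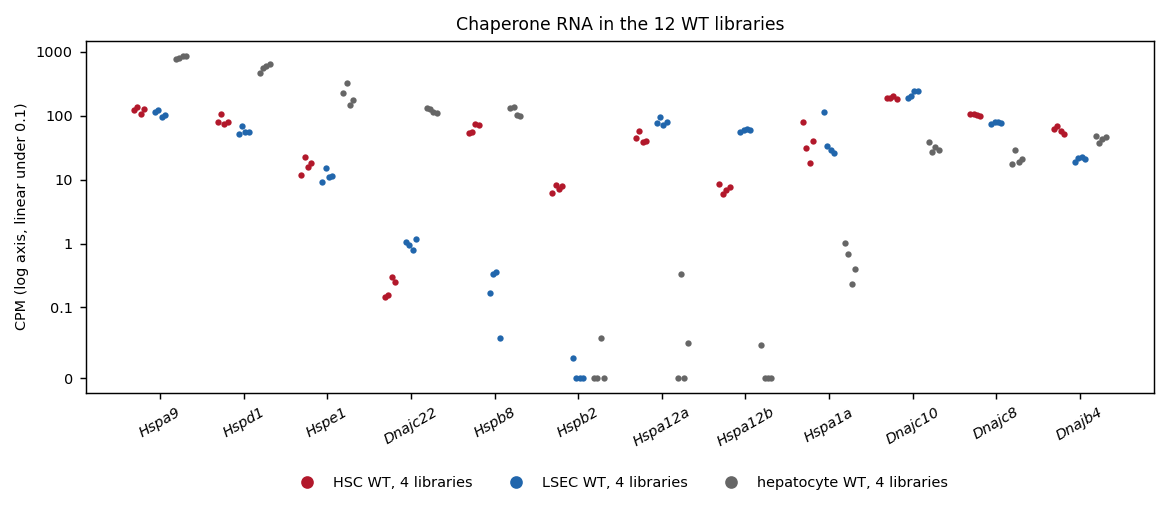
CPM of 12 members in the 12 WT libraries on a log axis that is linear under 0.1, with 1 point per library and the cell types side by side. Hspa9, Hspd1, Hspe1 and Dnajc22 are highest in hepatocytes, Hspb8 is near 0 in LSECs, and Hspa12a, Hspa12b and Hspa1a are near 0 in hepatocytes.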

How the data were processed

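Read counts per gene symbol were deposited by the authors, 1 file per library; they are raw counts with no scaling. Per the submitters' processing notes the tools were FastQC 0.11.4, Trimmomatic 0.35, TopHat2 2.1.0 and SAMtools 0.1.18 with build mm10. Not given in the sources used here are the counter, its strand setting and the annotation. By position, 15 of the 72 members overlap another protein-coding gene. Lines that name no gene (reads in no feature were 4.9 to 9.02% of a library) were left out of library sizes.

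Counts were tested with edgeR 4.0.16 in R 4.3.3 (limma 3.58.1; glmQLFit and glmQLFTest) after TMM scaling and the filterByExpr filter (minimum count 10, minimum total 15). A fit of 3 groups was made per cell type, another for the 12 WT libraries, and differences between responses used all 36 in 1 fit of 9 groups. The standard error is the absolute log2 change divided by the square root of F. CPM are scaled within the fit, so WT levels differ between the cell-type fits and the WT fit. The script was tested on simulated data. Depth was 25404719 to 31734631 counts per library.

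The 72 members, their roles and the lists of partner, marker and immediate early genes were chosen with earlier results of these data known. Values are given for a core of 24 members, for up to 8 called members each way per comparison with at least 1 CPM, for up to 4 each way per response difference, and for up to 4 called genes per partner list; other members are given by counts, or by a value in passing chosen after it was seen. Alternatives were RLE scaling, no filter, DESeq2 1.42.0, only the 2 groups compared, the replicate number as a block, and leaving out each library. The hepatocyte fit was also run with a term for Malat1 above 100 CPM, whose result is not given here. Same-numbered libraries deviated together (all correlations over 0.1) between HSCs and LSECs at 12 h (0.181 to 0.471) and at 36 h (0.195 to 0.291). The same held between hepatocyte WT and 36 h (0.415 to 0.527), where other numbers reached 0.523. No other pair of groups checked passed that limit in full. Even so, all 4 libraries correlated best with their own number between HSC WT and 36 h (0.065 to 0.228). This was also so between LSECs and hepatocytes at 36 h (0.0816 to 0.152). Promoters are from RefSeq (GRCm38.p6) and gene positions from RefSeq by symbol; exon lengths and transcripts for shared stretches are from GENCODE vM21.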

Additional observations from a re-analysis of the deposited data

Results flagged for a closer look

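A library was flagged when its gap to the next library, divided by the range of its group of 4, passed Dixon's 95% critical value. This happened in 14 of 210 groups (6.67%), where chance flags about 1 in 20. In HSCs these were Hspa9 at 36 h (replicate 3 at 122.5 CPM, the others 134 to 135), Hspb1 at 36 h (replicate 4 at 56.3) and Hspa2 in WT (replicate 2 at 9.71). In LSECs WT replicate 1 was high for Hspa1a (144 CPM) and Hspa1b (111 CPM), the 2 nearly identical genes, and WT replicate 2 for Hspa4l (12.9 CPM). Also in LSECs, Dnaja1 was low at 12 h in replicate 1 (244 CPM), Hspa1a low at 36 h in replicate 3 (13.3 CPM), Hspa2 low at 36 h in replicate 4 (7.18 CPM) and Hspb8 high at 36 h in the same replicate 4 (2.97 CPM). In hepatocytes the flagged values were Hspa8 at 12 h (replicate 1 at 802 CPM), Hspd1 at 36 h (replicate 1 at 359 CPM), Hspa1a at 36 h (replicate 4 at 1.97 CPM) and Dnajb9 in WT (replicate 1 at 107 CPM).

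The 12 h responses that differed between cell types by edgeR's test of the difference were flagged as well, each as a log2 difference. HSCs exceeded hepatocytes for Hspa8 (1.85), Hsph1 (1.78), Hspe1 (1.72), Dnaja1 (1.34), Hsp90aa1 (1.28), Dnajb1 (1.27), Dnajc2 (1.15), Dnajc25 (1.04), Hspa9 (0.84), Hspd1 (0.79) and Hspa4 (0.56). LSECs exceeded hepatocytes for Hspa1b (2.98), Hspe1 (1.87), Hsph1 (1.79), Hspa8 (1.77), Hsp90aa1 (1.20), Hspd1 (1.04), Dnajb4 (1.02) and Hspa9 (0.89), and lay below them for Dnajc10 (-0.85). The Hsph1 difference for LSECs was lost in 20 of 36 fits without 1 library (adjusted p 0.0505 to 0.101), and that of Hspa8 in 11 (0.0551 to 0.0856). For HSCs, that of Hsph1 was lost in 8 of 36 (0.055 to 0.0757). The Hspa1b difference for LSECs was lost without LSEC 12 h replicate 4 (0.0522).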

How the results depend on the processing

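Of 104 gene results, 83 kept their direction and call in every alternative, and of 1927 alternative values 1800 stayed on the same side of the threshold, 127 lost the call and 0 reversed. Many of these results are differences between WT cell types, among which Hspa2 between HSCs and LSECs alone lost its call. Every other loss was in a comparison with 12 h libraries, so the pooled share overstates how stable those results were. RLE scaling, no filter and fits of only the 2 groups compared moved no count of called members by more than 1.5 times. DESeq2 called 1 member between 36 h and 12 h in hepatocytes (edgeR 0) and 18 for the response of HSCs less hepatocytes at 12 h (edgeR 11). With the replicate number as a block, the responses at 12 h gave 3 calls for HSCs less LSECs (0 without it), 5 for HSCs less hepatocytes (11) and 4 for LSECs less hepatocytes (9); the block moved no other count of called members by over 1.5 times.

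Leaving out 1 library gave 14 to 24 called members for HSCs at 12 h against WT, 12 to 21 for LSECs, 22 to 27 for HSCs at 36 h against 12 h and 20 to 23 for LSECs. The WT comparisons gave 27 to 35 (HSCs and LSECs), 44 to 50 (HSCs and hepatocytes) and 52 to 54 (LSECs and hepatocytes). The response at 12 h gave 7 to 13 for HSCs less hepatocytes and 5 to 11 for LSECs less hepatocytes, with the libraries behind the lowest values named beside the results. Why these counts moved was not tested. The other comparisons stayed at 0. The spread of 4 libraries limits members with few counts and those as variable as Hspa5 and Hspa1a.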

Other observations

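In hepatocytes, 9 of the 57 tested members separated libraries that the labels do not separate. Malat1, a nuclear RNA, was above 100 CPM in 5 hepatocyte libraries (WT replicates 1 and 2, 12 h replicate 1, and 36 h replicates 1 and 2; 242 to 479 CPM) and at 24.8 to 44.9 CPM in the other 7. In these 5 libraries 8 members (14%) lay above all of the other 7 and 1 (1.75%) below, where 12.8% and 10.6% of the 11326 genes tested did. Hspe1 was at 168 to 261 CPM in the 5 and 97 to 125 CPM in the 7. Hspb1 was at 46.3 to 56.7 and 18.6 to 35.4 CPM, Dnajb1 at 32.8 to 46.2 and 16.4 to 28.4 CPM, and Dnajc15, a J-domain protein of the mitochondrial inner membrane, at 27.6 to 40.4 and 14.8 to 19.9 CPM. Dnajc16 went the other way, at 5.23 to 10.4 and 12.8 to 16.6 CPM. The share of members above was near that of all genes, this split was chosen after the values were seen, and what sets the 5 libraries apart was not tested.

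Dnajb13, a gene of motile cilia, had at most 52 counts in an HSC library, 20 in an LSEC library and 0 in any hepatocyte library. Dnajc27 was at 22.2 ± 2.77 CPM in WT HSCs, 7.03 ± 0.841 in LSECs and 0 to 0.566 in hepatocytes (SD, n = 4).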
